A study of Mus musculus with 6 samples.

Results

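The genes described are 10 genes of the primary granule and of the promyelocyte stage of myeloid development: Mpo, Elane, Prtn3, Ctsg, Ms4a3, Fcnb, Cst7, Nkg7, Plac8 and Hp. They were taken by name, as genes of this granule and stage, with earlier results of these data known. All 10 were found among the 24063 gene symbols of the count table, and all 10 were among the 13679 symbols that passed the filter on low counts.

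RNA was sequenced from LSK cells of mouse bone marrow, a sorted fraction that lacks lineage markers, carries Kit and Sca1 and contains blood stem cells together with their earliest descendants. In one group, 3 libraries are labelled Arid2fl/fl:MxCre+ (knockout): both Arid2 alleles are floxed and Cre is driven by the interferon-responsive Mx1 promoter, which is not specific to blood cells. In the other group, 3 libraries are labelled MxCre+ (control) and carry the same transgene without floxed alleles. Mice of both groups were C57/BL6, received pIpC, a synthetic inducer of interferon that switches the promoter on, at 6 to 8 weeks of age, and were sampled 6 weeks later, so the controls share the transgene and the injection. Nothing in the labels ties a library to an animal or litter, and p-values therefore measure the spread between these libraries, which may be technical in part.

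Primary, or azurophil, granules are lysosome-like stores that form at the promyelocyte stage, before the secondary granules of the later neutrophil precursors. They hold myeloperoxidase and a small family of serine proteases that act on engulfed microbes. Transcription of these genes begins early, at a low level in multipotent progenitors and strongly in granulocyte and monocyte progenitors, and it is switched off as neutrophils mature.

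Libraries held between 12408966 and 28185678 counted reads, and a member had between 1072 and 337171 reads in a library, so counting error was small beside the spread between libraries. Values are CPM, read counts divided by library size after TMM scaling of the libraries. Arid2 itself had 156.0 ± 6.2 CPM in the libraries labelled knockout and 155.8 ± 8.5 CPM in the controls (SD, n = 3 each), a gene-level count that does not show whether the floxed exons were lost, so the groups are called by their labels. The level of Xist, an RNA of the inactive X chromosome, was 1969 to 2016 CPM (before TMM scaling) in the libraries labelled knockout and 1916 CPM in control replicate 2, but 6.15 and 11.9 CPM in control replicates 1 and 3, so the sexes were unequal between the groups. The controls therefore did not all come from the same animal. Of the genes behind the sort, Kit had 439.0 ± 10.96 CPM in the libraries labelled knockout and 557.4 ± 86.1 CPM in the controls (SD, n = 3 each; edgeR adjusted p = 0.0814). Ly6a, which encodes Sca1, was low in both groups and lower in the libraries labelled knockout, with 13.5 ± 1.6 CPM against 20.0 ± 2.1 CPM in the controls (SD, n = 3 each; edgeR adjusted p = 0.0378, and 0.344 with sex in the fit).

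None of the 10 genes passed the test between the libraries labelled knockout and the controls. By edgeR with an adjusted p under 0.05, 0 of 10 were higher and 0 of 10 lower, where 3.85% of all tested genes were higher and 4.58% lower. DESeq2 and limma-voom also called 0 of 10. At an unadjusted p under 0.05, 2 of 10 were higher (Fcnb and Hp), where 12.2% of all tested genes were. All 10 log2 fold changes were above 0, with a median of 0.24, where the median of all tested genes was -0.0016 and 49.6% were above 0. The 10 values ranged from 0.11 for Elane to 0.73 for Hp. In bulk samples such as these, fewer cells of a type and less RNA per cell cannot be told apart. Control replicate 3 had the lowest level of all 10 genes, and knockout replicate 1 the highest of all 10.

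**Figure D1:**
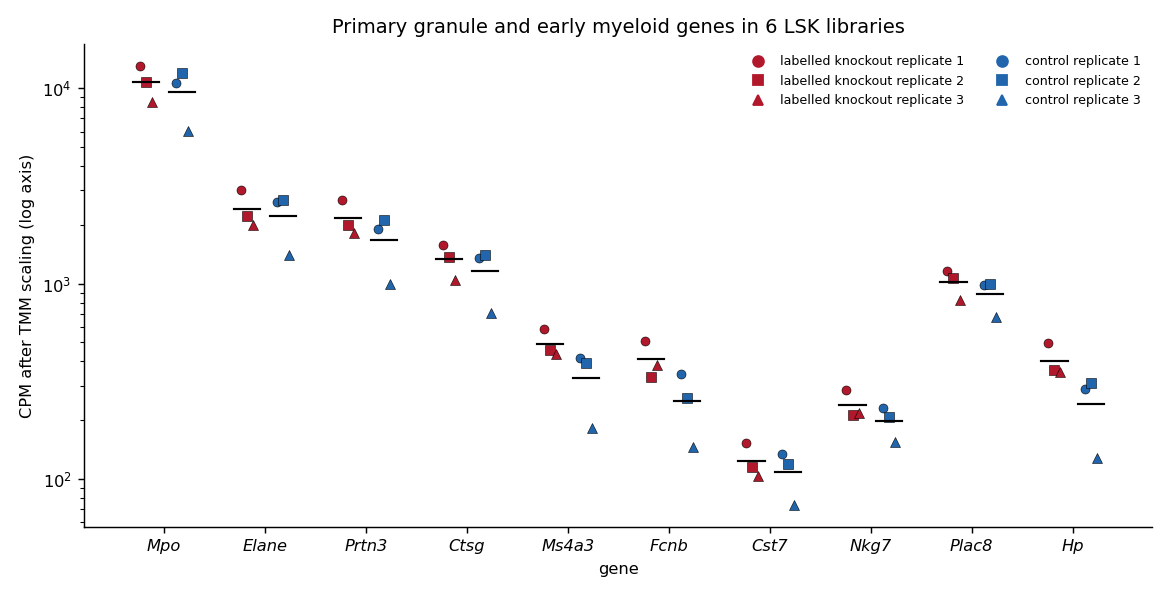
CPM of each gene in each library on a log axis, with the libraries labelled knockout in red at the left and the controls in blue at the right of each gene; shapes give the replicate and bars the mean of 3 libraries. Control replicate 3 is the lowest point of every gene, and the groups overlap for 8 of the 10 genes, Ms4a3 and Hp being apart.

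The 4 azurophil enzyme genes were the most abundant members, and none of them passed the test. Mpo encodes myeloperoxidase, the haem enzyme that makes hypochlorous acid (ENSMUSG00000009350, mm10 chromosome 11, 87793581 to 87804413, plus strand). It had 12992, 10811 and 8518 CPM in knockout replicates 1 to 3, against 10613, 11981 and 6033 CPM in control replicates 1 to 3. The groups overlapped: control replicates 1 and 2 lay inside the range of the libraries labelled knockout, and control replicate 3 lay below all of them. The log2 fold change was 0.18 with an SE of 0.25 (95% confidence interval -0.39 to 0.74, edgeR adjusted p = 0.710). Mpo was the first or second gene by read count in every library.

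Elane encodes neutrophil elastase, and its gene (ENSMUSG00000020125, chromosome 10, 79886247 to 79888215, plus strand) lies 3.073 kb downstream of Prtn3, which encodes proteinase 3 (ENSMUSG00000057729, 79874476 to 79883174, plus strand). Elane had 3020, 2223 and 1990 CPM in the libraries labelled knockout and 2608, 2674 and 1402 CPM in the controls. Again control replicates 1 and 2 fell inside the range of the libraries labelled knockout, and the log2 fold change was 0.11 (SE 0.25, edgeR adjusted p = 0.818), the smallest of the 10. Prtn3 had 2686, 2003 and 1808 CPM in the libraries labelled knockout and 1903, 2116 and 1001 CPM in the controls, with a log2 fold change of 0.37 (SE 0.26, edgeR adjusted p = 0.425). Its exons overlap those of Plppr3 on the opposite strand, listed in the table under the older symbol Lppr3, and whether the authors counted by strand is not stated in the sources used. Lppr3 had 354.6 ± 29.9 CPM in the libraries labelled knockout and 366.5 ± 19.6 CPM in the controls (SD, n = 3 each), far below Prtn3.

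Ctsg encodes cathepsin G, the third serine protease of the granule (ENSMUSG00000040314, chromosome 14, 56099881 to 56102574, minus strand). It had 1585, 1364 and 1048 CPM in the libraries labelled knockout and 1358, 1409 and 709 CPM in the controls, and the groups overlapped (edgeR log2 fold change 0.20 with SE 0.25, adjusted p = 0.671). Summed, the 4 genes had 16683 ± 3468 CPM in the libraries labelled knockout and 14602 ± 4802 CPM in the controls (SD, n = 3 each). The transcripts of Elane and Ctsg share no stretch of 50 bases with any other gene of the annotation, and no pair of members shares one, so reads of that length would not have been exchanged between the proteases. Of the stretches of 50 bases in Mpo transcripts, 9.46% also occur, on either strand, in other genes of the annotation, among them the antisense gene Gm11505. Of those in Prtn3, 6.45% do. How far this affects the counts of Mpo and Prtn3 was not tested.

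The 4 azurophil genes followed each other closely across the 6 libraries. The sequences at their starts are shown as a description, and their part in this likeness was not tested. Each is the RefSeq window of 250 bases before to 50 after the annotated start (GRCm38.p6), 5′ to 3′ on the strand of the gene. Capitals mark matches on either strand to GGAAGT (a core that PU.1 binds), AACNGNC (MYB), TGTGGT (RUNX) and TTNNGNAA (C/EBP), factors of myeloid development; no matches overlap in these 4 windows. The windows are chr11:87793534-87793833 for Mpo (plus strand), chr10:79886062-79886361 for Elane (plus), chr10:79879417-79879716 for Prtn3 (plus) and chr14:56102525-56102824 for Ctsg (minus).
Mpo: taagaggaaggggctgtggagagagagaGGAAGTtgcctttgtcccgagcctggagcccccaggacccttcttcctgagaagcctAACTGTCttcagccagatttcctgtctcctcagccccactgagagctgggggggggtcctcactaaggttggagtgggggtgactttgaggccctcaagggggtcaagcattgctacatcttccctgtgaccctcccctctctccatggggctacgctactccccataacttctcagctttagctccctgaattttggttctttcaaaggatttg
Elane: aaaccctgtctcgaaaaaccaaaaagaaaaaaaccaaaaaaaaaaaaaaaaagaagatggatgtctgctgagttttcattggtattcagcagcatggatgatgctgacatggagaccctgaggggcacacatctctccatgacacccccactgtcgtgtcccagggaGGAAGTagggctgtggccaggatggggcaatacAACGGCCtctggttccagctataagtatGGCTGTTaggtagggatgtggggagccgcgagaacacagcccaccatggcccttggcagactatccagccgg
Prtn3: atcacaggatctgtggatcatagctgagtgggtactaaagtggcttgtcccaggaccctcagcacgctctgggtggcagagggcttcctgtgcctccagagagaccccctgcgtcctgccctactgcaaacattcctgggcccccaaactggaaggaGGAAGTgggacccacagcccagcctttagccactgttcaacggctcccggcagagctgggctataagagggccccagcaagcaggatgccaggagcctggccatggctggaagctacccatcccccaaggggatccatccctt
Ctsg: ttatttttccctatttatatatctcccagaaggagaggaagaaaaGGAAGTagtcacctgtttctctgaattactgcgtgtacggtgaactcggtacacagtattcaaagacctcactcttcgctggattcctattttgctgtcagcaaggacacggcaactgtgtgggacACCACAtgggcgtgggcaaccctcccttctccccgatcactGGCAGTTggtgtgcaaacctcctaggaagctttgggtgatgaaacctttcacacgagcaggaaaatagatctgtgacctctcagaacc
All 4 windows hold GGAAGT on the strand of the gene, with its first base at -222 in Mpo, -83 in Elane, -93 in Prtn3 and -205 in Ctsg relative to the start. The neighbours Elane and Prtn3 thus have it at similar distances. Of the 9 members with a sequence in the table, 7 hold GGAAGT on either strand (the others are Nkg7 and Plac8), where 23.8% of 32851 promoter windows do. The MYB letters are in 6 of the 9 windows, against 32.8% of all windows, the RUNX letters in 4, against 16.8%, and the C/EBP letters in 4 (Ms4a3, Fcnb, Cst7 and Plac8), against 40.7%. In the Ms4a3 window a match to the C/EBP letters and one to the PU.1 letters overlap. Each member was counted by its first listed window, while the shares are over all windows, whether or not the gene was expressed. These sets are unlike, so the counts are not read as an enrichment. A match is a description of the letters and does not show binding.

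The highest fold changes of the 10 were those of Ms4a3, Fcnb and Hp, and none of them passed the test. Ms4a3 encodes a membrane protein that marks granulocyte and monocyte progenitors (ENSMUSG00000024681, chromosome 19, 11629496 to 11640851, minus strand). It had 585, 456 and 434 CPM in the libraries labelled knockout and 416, 392 and 181 CPM in the controls, with a log2 fold change of 0.58 (SE 0.27, edgeR adjusted p = 0.235). The groups did not overlap, with knockout replicate 3 just above control replicate 1.

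Fcnb encodes ficolin B, a lectin that starts the complement cascade (ENSMUSG00000026835, chromosome 2, 28076378 to 28084885, minus strand). It had 511, 332 and 385 CPM in the libraries labelled knockout and 344, 260 and 146 CPM in the controls. Control replicate 1 was above knockout replicate 2, and the log2 fold change was 0.71 (SE 0.28, 95% confidence interval 0.08 to 1.35, edgeR adjusted p = 0.154). Hp encodes haptoglobin, a binder of free haemoglobin best known from liver and also made by developing neutrophils (ENSMUSG00000031722, chromosome 8, 109575128 to 109579172, minus strand). It had 498, 360 and 354 CPM in the libraries labelled knockout and 289, 312 and 128 CPM in the controls, a log2 fold change of 0.73 (SE 0.29, 95% confidence interval 0.06 to 1.403, edgeR adjusted p = 0.164). Its groups did not overlap. Ms4a3 and Hp were thus the 2 of 10 members whose libraries labelled knockout all lay above all controls, where 15.1% of all tested genes did so.

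The other 3 members are also expressed outside the granulocyte line. Plac8 encodes a small cysteine-rich protein of myeloid progenitors that lymphoid and plasmacytoid dendritic cells make as well (ENSMUSG00000029322, chromosome 5, 100553725 to 100572245, minus strand). It had 1164, 1067 and 823 CPM in the libraries labelled knockout and 983, 993 and 678 CPM in the controls (edgeR log2 fold change 0.20 with SE 0.17, adjusted p = 0.510). Nkg7 encodes a membrane protein of cytotoxic granules that is known mainly from NK and T cells (ENSMUSG00000004612, chromosome 7, 43437073 to 43438249, plus strand). It had 284, 212 and 218 CPM in the libraries labelled knockout and 230, 209 and 154 CPM in the controls (edgeR log2 fold change 0.27 with SE 0.16, adjusted p = 0.340). Both genes overlapped between the groups and varied less than the azurophil genes: control replicate 3 had 68.6% of the mean of the other controls for Plac8 and 70.2% for Nkg7, but 53.4% for Mpo.

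Cst7 encodes cystatin F, an inhibitor of lysosomal cysteine proteases that include the activator of the granule serine proteases (ENSMUSG00000068129, chromosome 2, 150570415 to 150578944, plus strand). It was the least abundant member, with 152, 116 and 104 CPM in the libraries labelled knockout and 134, 119 and 73.8 CPM in the controls. The groups overlapped, with a log2 fold change of 0.18 (SE 0.21, edgeR adjusted p = 0.653). Genes of T and NK cells, which express Nkg7, Cst7 and Plac8 too, were low: the 15 tested of 16 listed summed to 86.7 to 92.7 CPM in the libraries labelled knockout and 92.5 to 99.0 CPM in the controls. Among them, Cd3e had at most 3.53 CPM and Prf1, the perforin gene, at most 1.84 CPM in any library. Of the plasmacytoid dendritic cell list, 7 of 8 genes were tested and summed to 205.6 to 249.9 CPM in the libraries labelled knockout and 220.0 to 238.9 CPM in the controls. Of the B cell list, 8 of 9 were tested and summed to 25.5 to 29.2 CPM in the libraries labelled knockout and 35.1 to 39.5 CPM in the controls. By edgeR 0 of these 8 rose and 1 fell, Cd79b, a chain of the B cell receptor (log2 fold change -1.16, adjusted p = 0.00263), although their median of 0.64 was above 0. Of the T and NK cell genes 1 rose, the chemokine gene Ccl5, and 1 fell, the T cell adaptor gene Lat, and of the plasmacytoid dendritic cell genes 1 rose, Bst2, and 0 fell. With sex in the fit none of Ccl5, Lat and Bst2 passed (edgeR adjusted p = 0.328, 0.0618 and 0.335). Cd79b still passed in that fit, with a log2 fold change of -1.15 (edgeR adjusted p = 0.0487).

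Per kilobase of annotated exon, the order of the members' levels in the controls was Mpo, Elane, Ctsg, Prtn3, Plac8, Nkg7, Fcnb, Ms4a3, Hp and Cst7. Mpo averaged 3147 ± 653 CPM per kb in the libraries labelled knockout and 2787 ± 910 in the controls (SD, n = 3 each). Elane averaged 2450 ± 549 CPM per kb in the libraries labelled knockout and 2264 ± 728 in the controls (SD, n = 3 each). Mpo was above Elane in all 6 libraries, although the difference of their control means was smaller than the SD of the controls. Ctsg and Prtn3 did not differ beyond that SD, and Ctsg was the higher in 4 of 6 libraries. The exon length of Prtn3 includes a longer annotated transcript, which lowers its value per kb. Plac8 stood apart from its neighbours in the order, below Prtn3 and above Nkg7 in all 6 libraries. From Nkg7 down to Cst7, the control means of genes next to each other in the order differed by less than the larger of their SDs. Nkg7 was above Fcnb in only 2 of 6 libraries and Fcnb above Ms4a3 in 5. Ms4a3 was above Hp, and Hp above Cst7, in all 6.

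Control replicate 3 weighed on the fold changes. Without it, the median log2 fold change of the 10 genes was 0.07 and 4 of 10 values were below 0. Mpo then had -0.07 (SE 0.16), Elane -0.13 (SE 0.16), Ctsg -0.05 (SE 0.15) and Cst7 -0.03 (SE 0.15). Fcnb had 0.44 (SE 0.18), Hp 0.43 (SE 0.14) and Ms4a3 0.28 (SE 0.12), with edgeR adjusted p of 0.189, 0.119 and 0.215. Without knockout replicate 1 the median was 0.11, with Elane at -0.08 and 9 of 10 values above 0. No member passed the test in any of the 6 fits that left out a library. Control replicate 3 also had 319 CPM of Egr1, an immediate early transcription factor gene, against 37.3 to 131 CPM in the other 5 libraries. It had the highest sum of the 10 stem cell genes as well, 676.0 CPM against 560.8 and 486.7 CPM in control replicates 1 and 2 (431.8 to 485.7 CPM in the libraries labelled knockout). Erythroblast genes were high in it too: the 10 listed summed to 480.6 CPM there and to 131.9 and 152.6 CPM in the other controls, against 257.4 to 781.9 CPM in the libraries labelled knockout. The part of these in the levels of the 10 genes was not tested.

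Sex was unequal between the groups, and adding sex to the fit leaves control replicate 2, alone among the controls at a female level of Xist, to set against the libraries labelled knockout. In that fit the median of the 10 was 0.05, with 7 values above 0 and 3 below. Mpo had -0.15 (SE 0.32), Elane -0.15 (SE 0.34) and Ctsg -0.08 (SE 0.34), while Fcnb had 0.66 (SE 0.44), Hp 0.37 (SE 0.40) and Ms4a3 0.33 (SE 0.40). No member passed (edgeR adjusted p from 0.618 to 0.984), where 0.0512% of all tested genes rose with the sex term. All 3 libraries labelled knockout were above control replicate 2 for 4 of the 10 genes, Ms4a3, Fcnb, Nkg7 and Hp, a share near the 29.9% of all tested genes in which they were, given the small number of members.

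**Figure D2:**
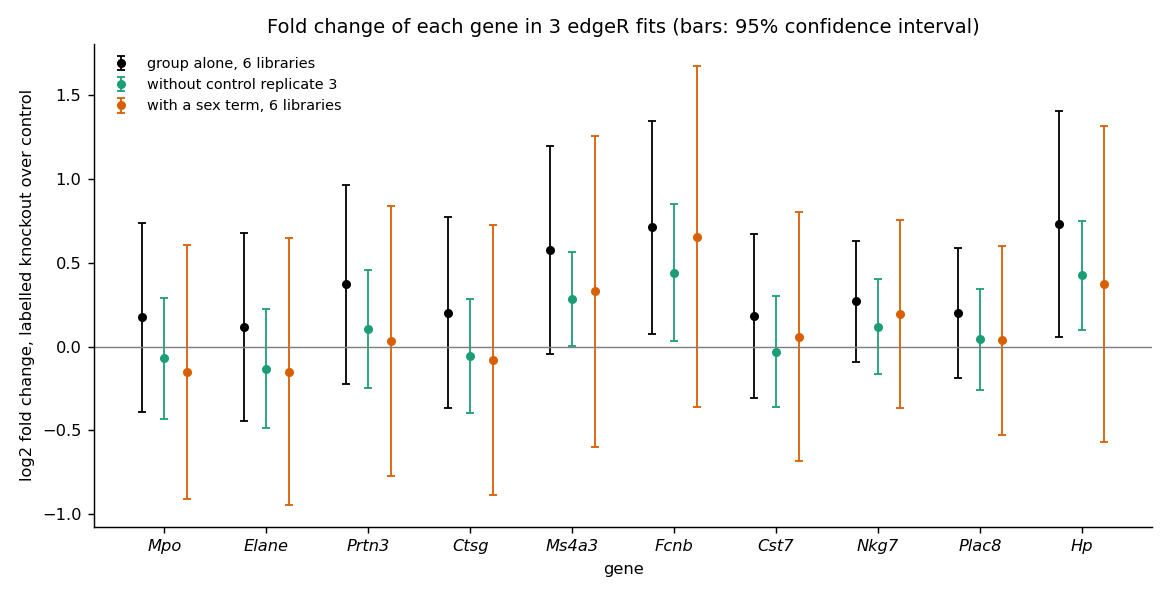
Log2 fold change of each gene, libraries labelled knockout over controls, from edgeR by group alone with all 6 libraries (black), without control replicate 3 (green) and with a sex term (orange); bars are 95% confidence intervals. Mpo, Elane and Ctsg lie below 0 in the green and orange fits, Cst7 lies below 0 in the green fit alone, and the other 6 genes lie above 0 in all 3.

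Setting each gene against Mpo within its own library removes the part of the variation that the genes share. Elane had 23.2%, 20.6% and 23.4% of the CPM of Mpo in the libraries labelled knockout and 24.6%, 22.3% and 23.2% in the controls, so the pair kept nearly the same proportion, also in control replicate 3. Ctsg had 12.4% ± 0.22 of Mpo in the libraries labelled knockout and 12.1% ± 0.60 in the controls (SD, n = 3 each). Plac8, Nkg7 and Cst7 overlapped between the groups as well.

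Hp, Ms4a3 and Prtn3 were higher relative to Mpo in every library labelled knockout than in any control. Hp had 3.83%, 3.33% and 4.15% of the CPM of Mpo in the libraries labelled knockout and 2.72%, 2.60% and 2.12% in the controls. Ms4a3 had 4.51%, 4.21% and 5.10% in the libraries labelled knockout and 3.92%, 3.27% and 3.01% in the controls. Prtn3 had 20.7%, 18.5% and 21.2% in the libraries labelled knockout and 17.9%, 17.7% and 16.6% in the controls. Fcnb overlapped, with 3.93%, 3.07% and 4.52% in the libraries labelled knockout and 3.24%, 2.17% and 2.42% in the controls. Such a separation was thus seen for 3 of the other 9 members. It was seen in 2% of 13678 tested genes, but Mpo was lowest in control replicate 3, so a gene that does not follow Mpo tends to have a high proportion there, and the members' count is not read against that share. These proportions were examined after the fold changes were known. They carry no test, and with 3 libraries against 3 an exact permutation test cannot go below 0.10.

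**Figure D3:**
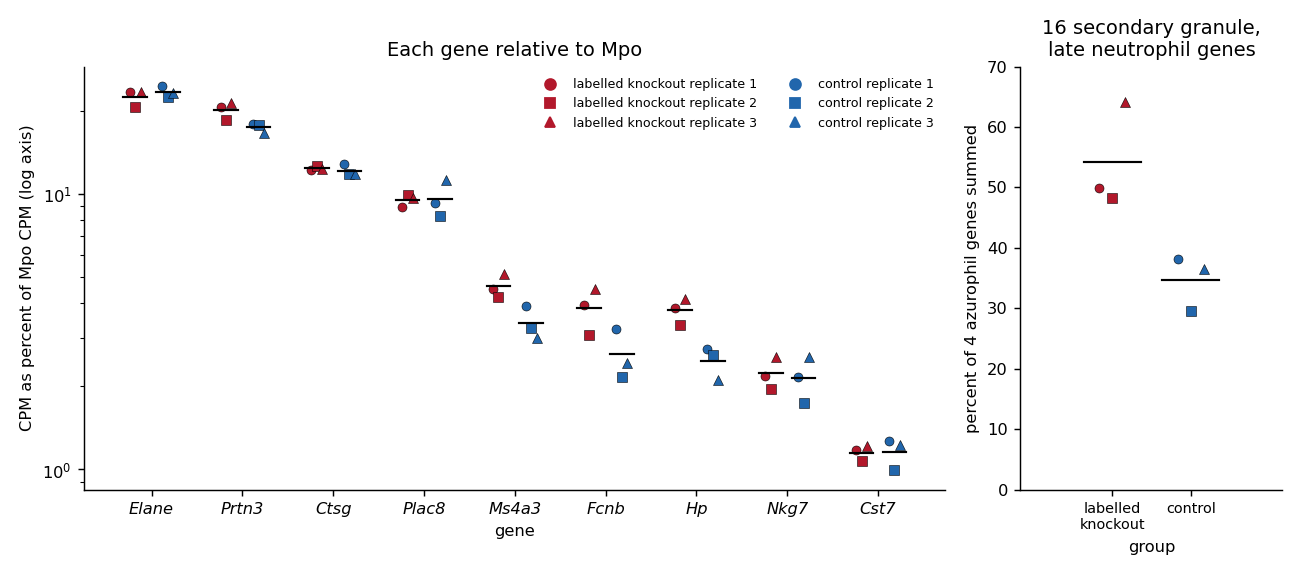
Left, the CPM of each gene as a percentage of the CPM of Mpo in the same library, on a log axis; right, the summed CPM of 16 secondary granule and late neutrophil genes as a percentage of the summed CPM of Mpo, Elane, Prtn3 and Ctsg. Red points are the libraries labelled knockout and blue points the controls, bars are means of 3; Prtn3, Ms4a3, Hp and the sum of 16 genes do not overlap between the groups.

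Secondary granule and late neutrophil genes, which act after the primary granule stage, were set beside them. Of 16 tested, 7 rose, 1 fell and 8 did not pass, with a median log2 fold change of 0.72 (0.66 with the sex term), beside 0 of 10 and 0.24 for the primary granule and early myeloid genes. Control replicate 3 had the lowest level of 11 of these 16 genes too, and its part in their fold changes was not tested. Cd177, a neutrophil surface antigen, had 260.4 ± 28.8 CPM in the libraries labelled knockout and 92.6 ± 21.2 CPM in the controls (SD, n = 3 each; log2 fold change by edgeR 1.49, edgeR adjusted p = 0.00345). Ltf (lactoferrin) and Lcn2 (lipocalin 2), proteins of the secondary granule, had 0.67 and 1.07 (edgeR adjusted p = 0.00388 and 0.00503). Padi4, a deiminase of histones in neutrophils, was the gene that fell, with 38.0 ± 2.7 CPM in the libraries labelled knockout and 73.6 ± 10.4 CPM in the controls (SD, n = 3 each; log2 fold change by edgeR -0.95, edgeR adjusted p = 0.00346). With sex in the fit, Padi4 (-0.90), Ltf (0.69), Cd177 (1.37) and Lcn2 (1.04) kept their direction and none of them passed (edgeR adjusted p = 0.0761, 0.0842, 0.0891 and 0.127). Summed, all 16 had 49.9%, 48.3% and 64.2% of the CPM of the 4 azurophil genes in the libraries labelled knockout and 38.2%, 29.5% and 36.6% in the controls. The groups did not overlap in this proportion, which carries no test.

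Genes that process, store or accompany the granule contents moved in part. Of 27 tested, 5 rose, 0 fell and 22 did not pass, and the median log2 fold change was 0.24. Control replicate 3 had the lowest level of 22 of the 27, and its part in their fold changes was not tested. Ctsc, whose product cathepsin C activates Elane, Prtn3 and Ctsg, was higher in the libraries labelled knockout, with 136, 152 and 192 CPM against 85.6, 112 and 98.8 CPM in the controls (edgeR log2 fold change 0.69 with SE 0.14, adjusted p = 0.0222). Cybb, the membrane subunit of the phagocyte oxidase that supplies myeloperoxidase with its substrate, was higher as well, with a log2 fold change of 0.90 (edgeR adjusted p = 0.0259). Higher too were the lysosomal mannosidase gene Man2b1 (0.48), the lysosomal membrane gene Lamp1 (0.38) and the haem oxygenase gene Hmox1 (1.92). Hmox1 is also a gene of macrophages: 14 monocyte and macrophage genes summed to 2931 to 3147 CPM in the libraries labelled knockout and 1559 to 2144 CPM in the controls, with 6 that rose, 0 that fell, 8 that did not pass and a median of 0.77. With sex in the fit, none of these 5 passed: Ctsc had 0.52 and Cybb 0.59 (edgeR adjusted p = 0.353 and 0.382), and Man2b1, Hmox1 and Lamp1 had edgeR adjusted p of 0.165, 0.268 and 0.380. The part of the monocyte and macrophage genes in the values of Ctsc, Cybb, Lamp1, Man2b1 and Hmox1 was not tested. Srgn (serglycin, the proteoglycan on which the proteases are packed), Serpinb1a (an inhibitor of elastase) and Prss57 (a further serine protease of the same granule) had log2 fold changes of 0.15, 0.10 and 0.04 (edgeR adjusted p = 0.583, 0.798 and 0.938).

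Among 19 regulators and receptors of granulocyte and monocyte development, 2 rose, 3 fell and 14 did not pass, with a median of 0.29. For 13 of the 19, control replicate 3 was the lowest library. Runx1 and Myb, transcription factors known to act on the Mpo and Elane promoters, were both lower in the libraries labelled knockout. Runx1 had 127, 124 and 112 CPM against 160, 156 and 151 CPM in the controls (edgeR log2 fold change -0.36 with SE 0.07, adjusted p = 0.0183). Myb had 606, 620 and 581 CPM in the libraries labelled knockout and 769, 774 and 702 CPM in the controls (edgeR log2 fold change -0.31 with SE 0.07, adjusted p = 0.0320). Etv6 was lower by a similar amount (-0.26, edgeR adjusted p = 0.0426), and Cebpb (0.65) and Csf1r (0.66) were higher, with edgeR adjusted p of 0.0354 and 0.0318. With sex in the fit, Runx1 and Myb both had -0.36 without passing (edgeR adjusted p = 0.207 and 0.210), and Etv6, Csf1r and Cebpb did not pass either (0.411, 0.411 and 0.431). Cebpa, which starts the granulocyte programme, had 195.7 ± 35.7 CPM in the libraries labelled knockout and 190.8 ± 46.9 CPM in the controls (SD, n = 3 each). Cebpe, which acts at the step to secondary granules, had a log2 fold change of 0.66, Gfi1 0.35, Spi1, which encodes PU.1, 0.34, and Csf3r, the granulocyte colony-stimulating factor receptor gene, 0.24, and none of these passed (edgeR adjusted p = 0.220, 0.270, 0.126 and 0.121).

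**Figure D4:**
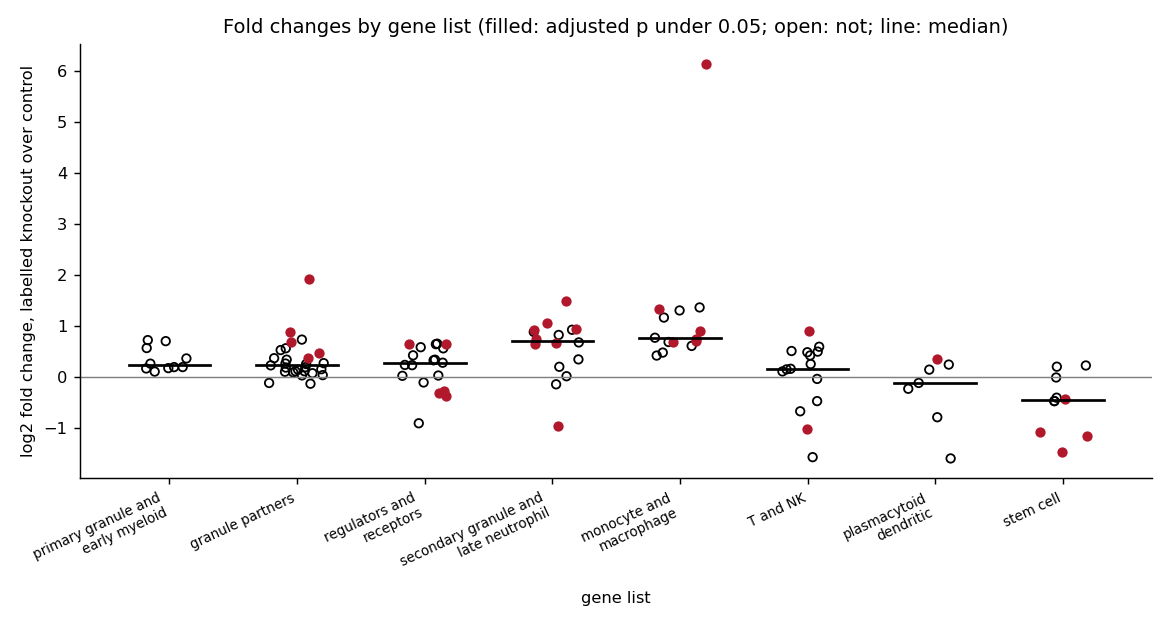
Log2 fold change of each tested gene, libraries labelled knockout over controls, by gene list; filled points have an edgeR adjusted p under 0.05, open points do not, and lines are medians. The primary granule and early myeloid list holds open points only, between 0.11 and 0.73, while the secondary granule list has 7 filled points above 0 and 1 below.

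Neighbouring genes were examined because Elane and Prtn3 lie side by side. Of 68 symbols within 100 kb of a member, 48 were tested, of which 22 had a positive log2 fold change, with a median of -0.03. By edgeR with an adjusted p under 0.05, 1 of 48 was higher and 1 of 48 lower, where 3.85% of all tested genes were higher and 4.58% lower. The higher gene was Ms4a6d, of the same family as Ms4a3 and 24.6 kb from it. It had 11.9 ± 4.3 CPM in the libraries labelled knockout and 4.55 ± 1.68 CPM in the controls (log2 fold change 1.34, edgeR adjusted p = 0.0389, SD, n = 3 each). Ms4a2, also of that family, lies nearer to Ms4a3, at 5.78 kb, and had a log2 fold change of -0.67 (edgeR adjusted p = 0.0885). The lower gene was Mcpt8, 14.6 kb from Ctsg. Mcpt8, a basophil protease gene, was lower, with 28.7 ± 10.3 CPM in the libraries labelled knockout and 96.5 ± 47.9 CPM in the controls (log2 fold change -1.75, edgeR adjusted p = 0.0361; SD, n = 3 each). With sex in the fit, neither Ms4a6d nor Mcpt8 passed (edgeR adjusted p = 0.431 and 0.152). Around Elane and Prtn3, no neighbour passed. Lpo, a peroxidase gene next to Mpo, had 4.87 ± 1.54 CPM in the libraries labelled knockout and 3.17 ± 1.32 CPM in the controls (SD, n = 3 each), far below Mpo.

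The genes, other than the 10, whose pattern over the 6 libraries was most like that of Mpo, Elane, Prtn3 and Ctsg were Alas1, Atp8b4, Card9, Dtx4, S100a4 and Aatk. Likeness was the root mean square difference between centred log2 CPM values and the mean centred profile of those 4 genes, over 6 libraries and 9836 candidate genes. It was 0.05 for Alas1, the first enzyme of haem synthesis outside red cells, 0.06 for Atp8b4, a phospholipid flippase gene, and 0.09 to 0.11 for the other 4. For the members themselves it was 0.04 to 0.09 for the 4 azurophil genes, which lie near the profile partly because they make it up. It was 0.11 for Cst7, 0.15 for Plac8, 0.18 for Nkg7, 0.23 for Ms4a3, 0.30 for Hp and 0.33 for Fcnb. Alas1 had 379.1 ± 61.4 CPM in the libraries labelled knockout and 321.8 ± 106.1 CPM in the controls (SD, n = 3 each; log2 fold change by edgeR 0.24, edgeR adjusted p = 0.580).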

How the data were processed

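The authors deposited read counts per gene symbol, raw whole numbers, for all 6 libraries. Per the submitters' processing notes, STAR was used and the build was mm10. Which STAR version, counter, annotation and strand option were used is not stated in the sources used here. Per the labels' protocols, RNA was poly(A)-selected and the library kit keeps strand.

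The test on counts was that of edgeR 4.0.16, run under R 4.3.3 (filterByExpr with a minimum count of 10 and a minimum total of 15, TMM scaling, quasi-likelihood F test with the group as the sole term). The SE is the absolute log2 fold change over the square root of F. P-values were adjusted by Benjamini-Hochberg across the 13679 genes tested. DESeq2 1.42.0 and limma 3.58.1 (voom) were alternatives. The fitting script was tested on simulated data. At an adjusted p under 0.05 by edgeR, it recovered 81.8% of 2-fold and 96% of 4-fold changes, and 17 of its 194 calls were false. Smaller changes, such as those of the members, were not simulated.

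Libraries of a group differed by a chi-square of at least 10.2 per degree of freedom over genes, so none repeated another. Sex was read from Xist (over 100 CPM as female) and checked against Y-linked genes. Positions and exon lengths are from GENCODE M21, where 22782 symbols matched by name and 840 through an older name. Promoter windows are from RefSeq. The members and gene lists were chosen with earlier results of these data known. Named genes are the 10 members, genes named for their roles, up to 4 of each list past the test with the smallest p, neighbours past the test and the 6 genes of closest profile. Cybb, Etv6, Egr1, Cd3e, Prf1, Ms4a2, Lppr3 and Lpo were named after their values were seen. No protein sequences were used here.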

Additional observations from a re-analysis of the deposited data

How the results depend on the processing

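Alternatives left the 10 genes without a call by edgeR, except the replicate block. With the replicate number as a block, 3 of 10 members were higher: Fcnb (log2 fold change 0.77, edgeR adjusted p = 0.0198), Hp (0.81, 0.0256) and Ms4a3 (0.65, 0.0330). In that fit 1169 of all 13679 tested genes were higher and 1003 lower, more than by group alone. The labels do not say that numbers pair libraries. Deviations from the group means correlated at 0.29, -0.005 and 0.34 across genes for replicates 1, 2 and 3. Knockout replicate 3 with control replicate 1 had -0.31, and knockout replicate 1 with control replicate 3 had -0.33. Libraries of replicates 1 and 3 thus correlated best with their own number, and those of replicate 2 did not. With deviations taken in groups of 3, these values do not settle whether the numbers pair libraries.

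Fold changes turned below 0 for Mpo, Elane and Ctsg with the sex term (-0.153, -0.149 and -0.0798) and in female libraries only (-0.155, -0.151 and -0.0820). In fits without one replicate, values ranged from -0.069 to 0.380 for Mpo, -0.132 to 0.274 for Elane, -0.055 to 0.374 for Ctsg and -0.030 to 0.355 for Cst7. Of 170 values of single members in the other settings, 156 kept their direction and side of the threshold, 11 turned sign and 3 passed the test. Genes higher and lower numbered 526 and 626 by group alone, 833 higher with DESeq2, 7 and 36 with the sex term, 10 and 29 in female libraries only, and 951 and 1051 at an adjusted p under 0.1. In fits without one replicate they ranged from 119 to 440 higher and from 171 to 544 lower. With female libraries only, the lone control is assumed to vary like the libraries labelled knockout.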
